A study of Mus musculus with 48 samples.

Results

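The genes described here are 8 cathepsins (Ctsa, Ctsb, Ctsc, Ctsd, Ctsh, Ctsl, Ctss and Ctsz), the lysosomal endopeptidase legumain (Lgmn) and the cathepsin inhibitor cystatin C (Cst3), in RAW264.7 cells, a mouse macrophage line. They were taken by gene symbol from a table of read counts with 49568 genes, and all 10 symbols were found. Polyadenylated RNA was sequenced after 72 h of culture, with the medium renewed at 48 h. The 8 groups were PBS, IFN-γ at 5 ng/ml, 1 of 3 synthetic peptides at 100 µg/ml, or that peptide and IFN-γ together. IFN-γ is a cytokine that activates macrophages. LE, SE and PE are 15mer peptides of residues 65-79 of the HLA-DR β chain: LE as coded by the lupus risk allele DRB1*03:01, SE by the rheumatoid arthritis risk allele DRB1*04:01, and PE, a form tied to protection, by DRB1*04:02. Each group had 3 libraries with a letter as name, used throughout, and 3 named HLA with a number. All libraries came from 1 transformed cell line, which limits it as a model of macrophages in tissue.

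Cathepsins are proteases of the endosomes and lysosomes, made as inactive precursors and activated by cleavage in the acid compartment. They fall into serine (cathepsin A), aspartic (cathepsin D) and cysteine types (the other 6 here), legumain is a separate cysteine protease that cuts after asparagine and helps to mature several cathepsins, and cystatin C is a secreted inhibitor that blocks cysteine cathepsins. In antigen-presenting cells these enzymes cut ingested proteins into peptides and remove the invariant chain from class II molecules.

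The letter-named libraries held 16.5 M to 26.9 M counts (M for mega), with a median of 22.9 M. Of 20 known IFN-γ targets, the mean log2(CPM + 0.5) was 6.68 to 7.08 in the libraries labelled with IFN-γ and 2.26 to 2.45 in those without it, so that none of these 24 libraries went against its label (CPM is the count scaled to 1 M counts in the library, after TMM scaling). In the HLA-named libraries 12 of 24 went against the label by the same measure. Those labelled LE or PE stood at 7.02 to 7.34, and those labelled IFN-γ or SE with IFN-γ at 2.17 to 2.33. No value below rests on the HLA-named libraries. The closing section gives the counts of genes that passed with them. Of 10 macrophage markers, at least 9 had a mean of 1 CPM or more in every group, with a summed level of 6683 to 9295 CPM with IFN-γ and 9168 to 12670 CPM without. The summed level of 10 osteoclast markers was 146 to 239 CPM with IFN-γ and 429 to 511 CPM without, with the calcitonin receptor gene Calcr at 0 or near 0. The summed level of 7 dendritic cell markers was 3.91 to 11.8 CPM with IFN-γ and 1.40 to 2.17 CPM without. Of these Flt3 and Ccr7 were at or near 0 throughout, while Clec9a had a mean of 0 CPM in the groups without IFN-γ, 4.44 CPM with IFN-γ alone, and 8.64 and 8.14 CPM with LE or SE and IFN-γ. The sums of the markers of lymphocytes and of fibroblasts or epithelium reached at most 0.843 and 1.84 CPM.

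Counted per kilobase of exon, cathepsin D was the most abundant of the 10 genes and cathepsin H the least. The length took in the exons of all annotated transcripts of a gene, 2351 bases for Ctsd and 6051 for Ctsb. It can exceed that of a single transcript, so the order depends on the annotation. Without division by length Ctsb (7267 CPM) stood above Ctsd (4432 CPM). Likewise Ctsl (1181 CPM) stood above Lgmn (978 CPM) and Cst3 (967 CPM). Over the 24 libraries Ctsd averaged 1885 CPM per kb, followed by the cysteine cathepsins Ctsb (1201), Ctsz (1180) and Ctss (1125). Cst3 stood at 764 CPM per kb, Ctsa at 429, Lgmn at 421 and Ctsl at 182. Ctsc with 25.4 and Ctsh with 4.83 CPM per kb were far below the rest. The 10 genes together took 2.02% ± 0.0997 of all counts in PBS (SD, n = 3), 2.17% ± 0.0472 with LE, 2.23% ± 0.115 with SE and 2.25% ± 0.144 with PE. In the groups with IFN-γ the share was 1.77% ± 0.120 alone, 1.98% ± 0.0312 with LE, 1.97% ± 0.0192 with SE and 1.78% ± 0.0830 with PE. Every gene was well counted: the lowest raw count in a library was 185, for Ctsh, and the other 9 genes had at least 822.

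**Figure D1:**
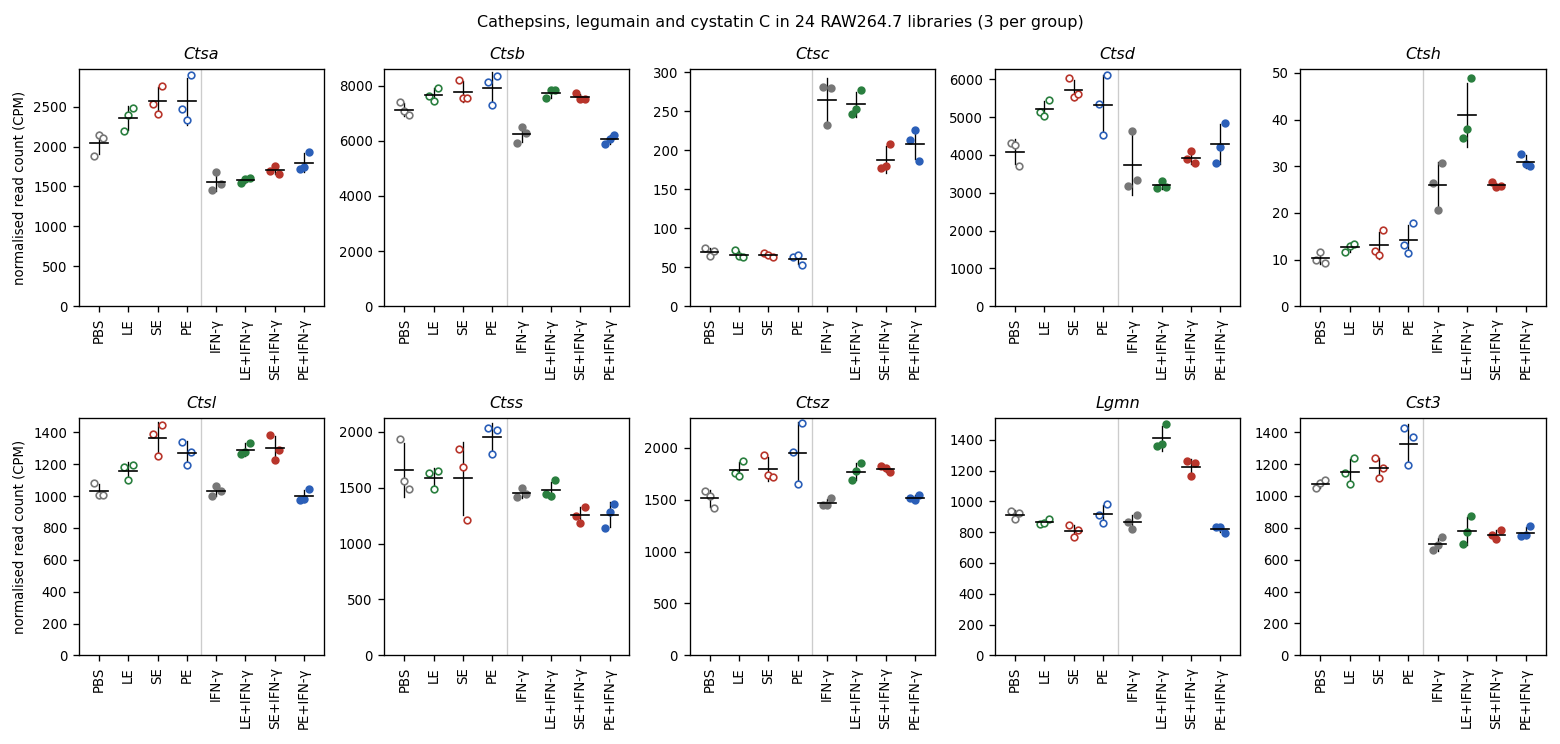
Normalised read counts (CPM, TMM-scaled, linear axis from 0) of the 10 genes in the 24 letter-named libraries, 3 per group. Points are libraries (open without and filled with IFN-γ), horizontal bars the mean and vertical bars the SD. Ctsc and Ctsh stand higher in all libraries with IFN-γ, Cst3 stands lower in all of them, and Lgmn stands apart with LE or SE together with IFN-γ, at 1165 to 1504 CPM.

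Promoter sequence is shown for Ctsc, Ctss, Ctsa, Ctsd and Lgmn, each of which held a motif described here. RefSeq (GRCm38.p6) gives a promoter, here 250 bases before to 50 bases after the start site, for 8 of the 10 genes, and Ctsb and Ctsh had no entry. These windows were searched on both strands for 4 motifs: the E-box CACGTG, its longer form GTCACGTG found before many lysosomal genes (which contains the E-box), the interferon element GAS as TTCNNNGAA, and the interferon-stimulated response element ISRE (GAAA, any 2 bases and GAAA). For the shares over all promoters, a chromosome that holds none of the 10 genes was left out. Of the 32851 promoters searched, 7.15% held the E-box, 2.25% the longer form, 8.30% the GAS letters and 3.44% the ISRE letters. Ctsc held a GAS match and Ctss an ISRE match. The 250 bases before their start sites follow, 5′ to 3′ on the strand of the gene, with the match in capitals. Both stretches lie outside the annotated gene and end at its first base, Ctsc at chr7:88277835-88278084 (plus strand) with the match starting at -236, and Ctss at chr3:95526536-95526785 (plus strand) with the match starting at -21.
Ctsc: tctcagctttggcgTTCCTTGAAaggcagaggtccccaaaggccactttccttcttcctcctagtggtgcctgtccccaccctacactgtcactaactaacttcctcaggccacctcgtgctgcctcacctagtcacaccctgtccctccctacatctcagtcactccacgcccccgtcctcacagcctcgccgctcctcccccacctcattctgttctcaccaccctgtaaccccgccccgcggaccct
Ctss: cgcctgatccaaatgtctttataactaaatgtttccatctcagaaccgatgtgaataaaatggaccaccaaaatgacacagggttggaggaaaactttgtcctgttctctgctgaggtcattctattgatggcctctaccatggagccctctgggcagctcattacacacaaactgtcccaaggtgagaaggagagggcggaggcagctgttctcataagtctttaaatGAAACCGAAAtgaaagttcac

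The longer E-box form was found in Ctsa, Ctsd and Lgmn, and a plain CACGTG in Ctsl, where it starts at -236. Short stretches around the longer form are given below with the element in capitals, so that its surroundings can be compared. In Lgmn it starts at -51 from 1 of 2 RefSeq start sites, at chr12:102439126-102439153 (minus strand), within an intron of the GENCODE M21 gene. In Ctsd it occurs at -245, at chr7:142388055-142388077 (minus strand), upstream of the gene, and at -98, at chr7:142387908-142387935, in the 5′ UTR. In Ctsa it occurs at -14 and at 5 from 1 of 2 start sites, at chr2:164833749-164833776 and chr2:164833768-164833795 (plus strand), both in the 5′ UTR. These matches describe the letters only, since no binding was measured.
Lgmn: tggaatgtctGTCACGTGgtccatttta
Ctsd at -245: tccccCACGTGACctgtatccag
Ctsd at -98: gcccgcgtctCACGTGACccgttgaggg
Ctsa at -14: tgagcaaactGTCACGTGatgcagatgc
Ctsa at 5: tgcagatgctCACGTGACcagagctaca

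IFN-γ alone was compared with PBS to see which of these genes the cytokine moved without a peptide. Cathepsins C and H rose, cystatin C and cathepsin A fell, and the remaining 6 genes did not pass the test. A gene passed when its Benjamini-Hochberg adjusted p over all genes tested was under 0.05 in edgeR's quasi-likelihood test. Among all genes tested, 20.2% passed as higher and 19.5% as lower, so 2 of 10 in each direction was the background rate. In bulk RNA a lower level can mean less RNA per cell or fewer cells that carry it, and the data cannot tell these apart.

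Ctsc codes for cathepsin C (dipeptidyl peptidase I), which activates the serine proteases of immune granules, and lies at chr7:88278085-88310888 on GRCm38. Its level in PBS was 74.1, 64.8 and 70.2 CPM. With IFN-γ it was 281, 232 and 281 CPM. All 3 treated libraries were far above all controls, and the change was 3.79-fold (log2 1.92, 95% interval 1.73 to 2.12, adjusted p = 2.1e-08). Ctsh, at chr9:90054152-90076089, codes for cathepsin H, an aminopeptidase, and had 9.95, 11.6 and 9.23 CPM in PBS. The libraries with IFN-γ held 26.3, 20.7 and 30.8 CPM of Ctsh. The groups did not overlap here either, and the change was 2.53-fold (log2 1.34, 95% interval 1.01 to 1.66, adjusted p = 3.3e-05).

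Cst3, at chr2:148871722-148875692, moved the other way. Cystatin C transcripts stood at 1048, 1079 and 1097 CPM in PBS. They stood at 661, 691 and 740 CPM with IFN-γ, below every control, and fell by 0.62 on the log2 scale (95% interval -0.78 to -0.46, adjusted p = 4.8e-05). Ctsa codes for the serine carboxypeptidase cathepsin A, which also protects lysosomal neuraminidase and β-galactosidase, and lies at chr2:164832873-164841032. It fell by 0.39 (adjusted p = 0.0037), from 1879, 2144 and 2108 CPM to 1461, 1680 and 1534 CPM. The ranges of Ctsa stayed apart, but without replicate 3 the change of -0.36 no longer passed (adjusted p = 0.070).

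Of the 6 genes that did not pass, Ctsb was nearest, at -0.19 (95% interval -0.37 to -0.01, adjusted p = 0.083). It passed as lower with DESeq2 (adjusted p = 0.026) and in 3 other alternatives. Ctsd had 3187, 4631 and 3343 CPM with IFN-γ, so replicate 2 stood above the other two and above all 3 PBS libraries (4309, 4256 and 3697 CPM). Ctsl, Ctss, Ctsz and Lgmn had intervals that spanned 0, with log2 changes of 0.0019, -0.19, -0.04 and -0.08. The macrophage and osteoclast marker sums given above also differed with IFN-γ, and so did that of the dendritic cell markers. Of the 10 macrophage markers 4 rose (Aif1, Fcgr1 and Adgre1 among them) and 4 fell, and the sum was mostly Lyz2, with a mean of 5436 CPM in PBS and 3715 CPM with IFN-γ. The part of these markers in the results was not tested.

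Each peptide alone was compared with PBS to see whether it moved these genes without the cytokine. With LE none of the 10 genes passed, against a background of 0.0242% higher and 0% lower over all genes tested. At an unadjusted p under 0.05 there were 4 (Ctsa, Ctsd, Ctsl and Ctsz, all with higher means), beside 1953 of 12420 genes tested, and DESeq2 called 1, Ctsd (log2 0.34, adjusted p = 0.040). With SE, Ctsd, Ctsl and Ctsa passed as higher, and with PE these and Ctsz and Cst3 did. The 3 comparisons share the PBS libraries.

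Ctsd codes for cathepsin D, the main aspartic protease of lysosomes, at chr7:142375911-142388038. Its levels with LE were 5134, 5038 and 5448 CPM, with SE 6026, 5524 and 5598 CPM, and with PE 5346, 4535 and 6108 CPM. All 9 libraries with a peptide lay above the 3 PBS libraries. The change was 0.47 with SE (95% interval 0.26 to 0.68, adjusted p = 0.011) and 0.37 with PE (0.16 to 0.58, adjusted p = 0.019), and 0.34 with LE (0.13 to 0.55, adjusted p = 0.22). Ctsl, the gene of the endopeptidase cathepsin L at chr13:64359337-64370890, changed by 0.39 with SE (adjusted p = 0.0077) and by 0.29 with PE (adjusted p = 0.015). Ctsa changed by 0.32 with each (adjusted p = 0.031 with SE and 0.023 with PE). With PE, Ctsz, whose product cathepsin Z is a carboxypeptidase, changed by 0.36 (adjusted p = 0.019), and Cst3 by 0.29 (adjusted p = 0.017). Lgmn with SE was at -0.19 (adjusted p = 0.055), and it passed as lower with DESeq2 (adjusted p = 0.018) and in 3 other alternatives.

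Higher calls made up 7.77% of genes tested with SE and 9.98% with PE, and lower calls 6.58% and 9.98%. Against these shares, 3 and 5 of the 10 genes were higher and none was lower. With 2 libraries per group, that is without replicate 1 or without replicate 3, none of the 10 genes passed with SE or with PE. The changes without replicate 1 were of like size, as for Ctsd (0.48 with SE and 0.41 with PE) and Ctsl (0.42 and 0.29), whereas without replicate 3 those with PE were smaller for Ctsd (0.20) and Ctsz (0.20). A length and GC offset, which removes each library's trend of counts on transcript length and GC content, ended the call of Ctsd with SE (0.31, adjusted p = 0.057) and, with PE, those of Ctsd (0.17, adjusted p = 0.23), Ctsz (0.09, adjusted p = 0.57) and Cst3 (-0.0015, adjusted p = 0.99).

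In the presence of IFN-γ, the study's Model A asks what each peptide changed, by setting cells given both against cells given the cytokine only. With LE and IFN-γ 5 of the 10 genes were higher (Lgmn, Ctsh, Ctsl, Ctsb and Ctsz) and no member of the set was lower, where 25.7% of all genes passed as higher and 24.8% as lower. With SE and IFN-γ 4 were higher (Lgmn, Ctsl, Ctsz and Ctsb) and 2 lower (Ctsc and Ctss), against 16.7% and 16.6%. With PE and IFN-γ Ctsa was higher and Ctsc lower, against 5.43% and 4.58%. The 3 comparisons share the IFN-γ libraries, so their values are set side by side only.

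**Figure D2:**
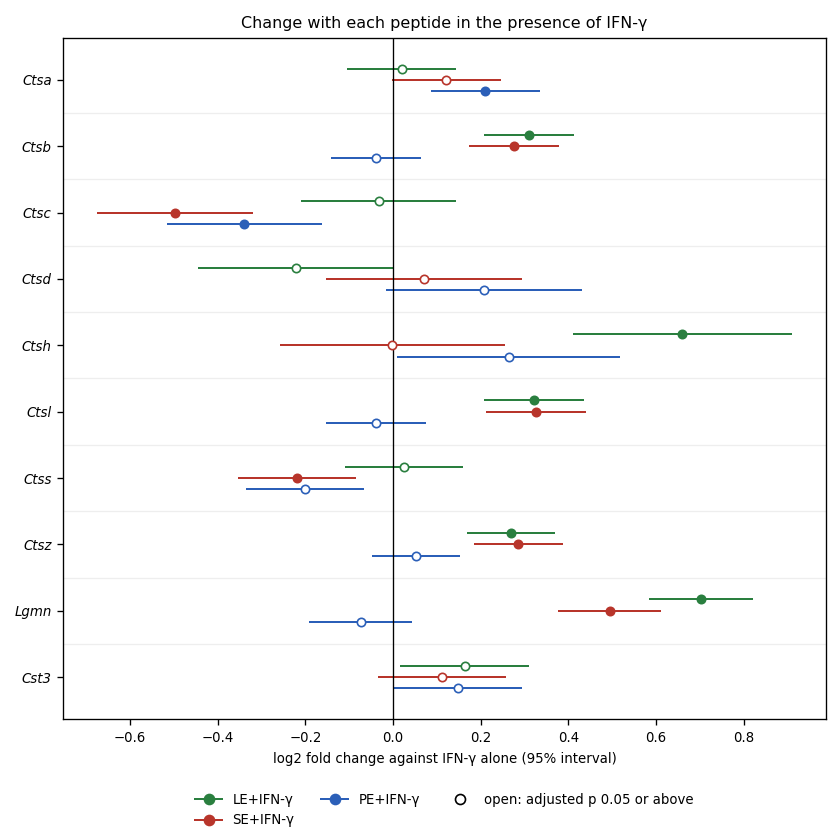
Log2 fold change of the 10 genes (rows) with each peptide plus IFN-γ against IFN-γ alone, from edgeR, with 95% intervals. Filled points have an adjusted p under 0.05. Lgmn lies at 0.70 with LE and 0.50 with SE and at -0.07 with PE, while Ctsc lies below 0 with SE and PE.

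Legumain had the largest change of the 10 genes with LE. Lgmn lies at chr12:102394084-102439813 on the minus strand. With IFN-γ alone it had 866, 823 and 909 CPM. With LE and IFN-γ it had 1356, 1370 and 1504 CPM, with SE and IFN-γ 1260, 1165 and 1250 CPM, and with PE and IFN-γ 834, 831 and 797 CPM. All LE and SE libraries stood above all libraries with IFN-γ alone, whereas the PE range overlapped it. The change was 1.63-fold with LE (log2 0.70, 95% interval 0.59 to 0.82, adjusted p = 1.5e-08) and 1.41-fold with SE (log2 0.50, 0.38 to 0.61, adjusted p = 2.1e-06). With PE it was -0.07 (95% interval -0.19 to 0.04, adjusted p = 0.41). Without IFN-γ the 12 libraries lay between 766 and 981 CPM. In the order of its 8 group means, LE with IFN-γ and SE with IFN-γ came first and each stood apart from the next group, while every neighbouring pair among the other 6 groups overlapped.

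Ctsh rose further with LE, to 36.1, 38.0 and 48.9 CPM (log2 0.66 against IFN-γ alone, adjusted p = 1.5e-04). With SE it had 26.5, 25.6 and 25.7 CPM, inside the range of IFN-γ alone (log2 -0.0013, 95% interval -0.26 to 0.25), and with PE 32.5, 30.4 and 30.0 CPM (log2 0.26, adjusted p = 0.16). LE with IFN-γ thus held the highest Ctsh levels of the 8 groups, and its lowest library stood above every other library.

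Ctsc showed another order. It had 247, 253 and 277 CPM with LE, within the range of IFN-γ alone (log2 -0.03, 95% interval -0.21 to 0.14), although it passed as lower under the length and GC offset (-0.23, adjusted p = 0.010). It had 177, 180 and 208 CPM with SE (log2 -0.50, adjusted p = 1.7e-04) and 213, 226 and 187 CPM with PE (log2 -0.34, adjusted p = 0.019). All SE and PE libraries lay below all libraries with IFN-γ alone and above all libraries without it.

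Ctsb, Ctsl and Ctsz changed by at most 0.33. Ctsb codes for cathepsin B, an endopeptidase that also removes dipeptides from the carboxyl end, and lies at chr14:63122462-63145923. It had 5938, 6515 and 6282 CPM with IFN-γ alone, 7541, 7841 and 7841 CPM with LE, and 7724, 7512 and 7532 CPM with SE. The log2 change was 0.31 with LE (adjusted p = 3.5e-05), 0.28 with SE (adjusted p = 2.3e-04) and -0.04 with PE (adjusted p = 0.63). Ctsl followed a like course, with 0.32 for LE (adjusted p = 7.1e-05), 0.33 for SE (adjusted p = 1.3e-04) and -0.04 for PE (adjusted p = 0.67), but its call with LE ended under the length and GC offset (0.08, adjusted p = 0.28). Ctsz, at chr2:174427493-174439039, changed by 0.27 with LE, 0.29 with SE and 0.05 with PE (adjusted p = 1.2e-04, 1.4e-04 and 0.49). All LE and SE libraries of Ctsb, Ctsl and Ctsz stood above all libraries with IFN-γ alone.

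Ctss codes for cathepsin S, the endopeptidase that finishes the removal of the invariant chain and stays active at neutral pH, and lies at chr3:95526786-95556403. It had 1417, 1499 and 1440 CPM with IFN-γ alone, 1250, 1180 and 1326 CPM with SE, and 1141, 1284 and 1354 CPM with PE. The change was -0.22 with SE (adjusted p = 0.012), which did not pass without replicate 2 (-0.16, adjusted p = 0.15) or in a fit of all 8 groups (adjusted p = 0.16). With PE it was -0.20 (adjusted p = 0.050, just above the threshold), which passed in 5 alternatives including DESeq2 (adjusted p = 0.018), and with LE 0.03 (95% interval -0.11 to 0.16). For PE, both calls ended without replicate 1 or without replicate 3: Ctsa then stood at 0.20 or 0.14 (adjusted p = 0.25 and 0.32), against 0.21 with all libraries (adjusted p = 0.031), and Ctsc at -0.31 or -0.22 (adjusted p = 0.23 and 0.20). Without replicate 2, where the high Ctsd library with IFN-γ alone is left out, Ctsd passed as higher with PE (0.41, adjusted p = 0.0067), against 0.21 with all libraries (adjusted p = 0.21).

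Cst3 did not pass with any peptide (0.16 with LE, 0.11 with SE and 0.15 with PE), with an adjusted p of 0.055 for LE, which passed in 5 alternatives including DESeq2 (0.17, adjusted p = 0.041). The summed macrophage marker level was 6970 to 7814 CPM with IFN-γ alone, 8249 to 9295 CPM with LE, 7949 to 8178 CPM with SE and 6683 to 6965 CPM with PE. That of the osteoclast markers was 148 to 160, 219 to 239, 195 to 214 and 146 to 163 CPM. That of the dendritic cell markers was 3.91 to 7.60, 8.47 to 11.7, 8.11 to 11.8 and 5.71 to 7.59 CPM. All 3 sums were higher with LE and SE than with IFN-γ alone, as Lgmn, Ctsb, Ctsl and Ctsz were. Single markers went both ways. Of the macrophage markers 7 passed as higher and 2 as lower with LE, and 4 and 1 with SE. Of the osteoclast markers 6 and 0 passed with LE, and 5 and 1 with SE. Atp6v0d2 had 63.6 CPM with IFN-γ alone, 123 with LE and 103 with SE, whereas Nfatc1 had 37.7, 34.5 and 31.2 CPM. The dendritic cell sum was mostly Clec9a. The part of these markers in the results was not tested.

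The peptides, which differ in a few residues of the same stretch, were then compared with each other at 1 dose and time, in 3 pairs, all with IFN-γ. LE and SE differed in 5 of the 10 genes. Ctsh (0.66, 95% interval 0.41 to 0.91, adjusted p = 4.7e-04), Ctsc (0.46, 0.29 to 0.64, adjusted p = 5.1e-04), Ctss (0.24, 0.11 to 0.38, adjusted p = 0.0064) and Lgmn (0.21, 0.09 to 0.32, adjusted p = 0.0072) were higher with LE, and Ctsd was lower (-0.29, -0.51 to -0.07, adjusted p = 0.039). In this pair 19.0% of all genes were higher with LE and 16.5% lower. For Ctsa, Ctsb, Ctsl, Ctsz and Cst3 the difference was -0.10, 0.03, -0.0047, -0.02 and 0.05, and all their intervals lay between -0.22 and 0.20. Under the length and GC offset 3 of these passed, Cst3 (0.30, adjusted p = 0.0038) and Ctsz (0.21, adjusted p = 0.0054) as higher with LE and Ctsl (-0.22, adjusted p = 0.011) as lower, so that 7 of the 10 genes differed there. Without replicate 3, Lgmn (0.17, adjusted p = 0.066) and Ctsd (-0.31, adjusted p = 0.081) no longer passed, and Ctsd also missed the threshold without replicate 1 (adjusted p = 0.0996) and with DESeq2 (adjusted p = 0.11). Ctss (adjusted p = 0.11) and Ctsd (adjusted p = 0.055) also missed it in a fit of all 8 groups, as did Ctsd under the length and GC offset (-0.13, adjusted p = 0.35).

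LE and PE differed in 9 of the 10 genes, where 30.0% of all genes were higher with LE and 29.9% lower. Lgmn led with 0.78 (95% interval 0.66 to 0.89, adjusted p = 4.3e-09), followed by Ctsh (0.40), Ctsl (0.36), Ctsb (0.35), Ctsc (0.31), Ctss (0.23) and Ctsz (0.22), with adjusted p from 6.7e-06 to 0.0069. Ctsd (-0.43, adjusted p = 0.0019) and Ctsa (-0.19, adjusted p = 0.0087) were lower with LE. Cst3 did not pass (0.02, 95% interval -0.13 to 0.16), but it passed under the length and GC offset (0.35, adjusted p = 2.8e-04). Without replicate 3 the calls of Ctsa, Ctsc and Ctsh ended (-0.14, 0.19 and 0.24), and without replicate 1 that of Ctss (0.18, adjusted p = 0.071), which also ended in a fit of all 8 groups (adjusted p = 0.080). Under the length and GC offset Ctsl turned to -0.03, and Ctsa (-0.10), Ctsc (0.05) and Ctsd (-0.19) no longer passed.

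SE and PE differed in 4 genes, all higher with SE: Lgmn (0.57, 95% interval 0.45 to 0.68, adjusted p = 4.9e-07), Ctsl (0.37, adjusted p = 4.3e-05), Ctsb (0.31, adjusted p = 6.6e-05) and Ctsz (0.23, adjusted p = 9.0e-04). The background was 17.3% higher and 17.1% lower. None of the other 6 genes passed, with differences of -0.02 (Ctss) to -0.27 (Ctsh), and intervals that reached from -0.52 to 0.11. Ctsc passed as lower with SE without replicate 3 (-0.31, adjusted p = 0.018) and under the length and GC offset (-0.23, adjusted p = 0.016), and Ctsh did without the filter on low counts (-0.26, adjusted p = 0.016). Lgmn was the only 1 of the 10 genes that passed in all 3 pairs.

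**Figure D3:**
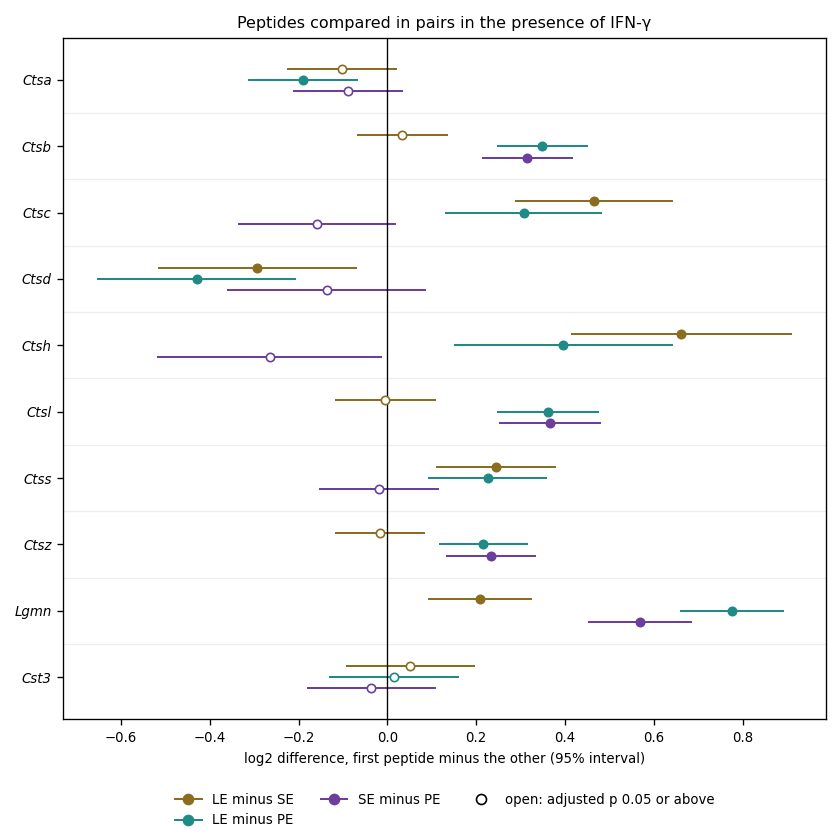
Log2 difference between peptides, each with IFN-γ, for the 10 genes (rows), from edgeR, with 95% intervals. Filled points have an adjusted p under 0.05. All 3 differences lie above 0 for Lgmn, at 0.21, 0.78 and 0.57, and those of Cst3 all have intervals that hold 0.

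Model B sets cells given both against cells given the same peptide only, and so shows what IFN-γ changed on each background. Ctsc and Ctsh rose on all 3 peptides as they did on PBS, Cst3 and Ctsa fell on all 3 as on PBS, and Lgmn rose on LE and on SE but not on PBS or PE. Over all genes 33.2% were higher and 32.7% lower on LE, 28.7% and 28.8% on SE, and 25.4% and 24.5% on PE. Of the 10 genes, 4 were higher and 3 lower on LE, 3 and 4 on SE, and 2 and 8 on PE.

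Ctsc rose by 1.97 on LE, 1.51 on SE and 1.78 on PE, beside 1.92 on PBS (adjusted p of at most 6.7e-12 on the peptides). Ctsh rose by 1.70, 0.98 and 1.16, beside 1.34 on PBS. Both were higher in every library with IFN-γ than in every library without it, whatever the peptide. Cst3 fell by 0.56 on LE, 0.64 on SE and 0.78 on PE (adjusted p of at most 3.2e-06), beside 0.62 on PBS. Ctsa fell by 0.57, 0.60 and 0.51, beside 0.39 on PBS. Ctsd fell by 0.70, 0.55 and 0.31 (adjusted p = 7.4e-07, 2.5e-05 and 0.0075), beside -0.13 on PBS, which did not pass, and on PE its groups overlapped and the call ended without replicate 1 (-0.22, adjusted p = 0.19).

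Lgmn rose by 0.71 on LE (95% interval 0.58 to 0.83, adjusted p = 1.5e-09) and by 0.60 on SE (0.48 to 0.72, adjusted p = 2.7e-08). On PE it fell by 0.15 (adjusted p = 0.034), a call that ended without replicate 1 (adjusted p = 0.14), without replicate 3 (adjusted p = 0.26) or without the filter on low counts (adjusted p = 0.11). Ctsl rose by 0.16 on LE (adjusted p = 0.035), a call that ended without any 1 of the 3 replicates (adjusted p of 0.073, 0.11 and 0.092) and turned to -0.24 under the length and GC offset (adjusted p = 0.023). Ctss fell by 0.34 on SE (adjusted p = 0.0089), where the third SE library (1215 CPM) lay within the range with IFN-γ, and the call ended without replicate 1 (-0.21, adjusted p = 0.23) or replicate 2 (-0.24, adjusted p = 0.17). On PE, Ctss (-0.62), Ctsb (-0.38), Ctsz (-0.35) and Ctsl (-0.34) were also lower with IFN-γ (adjusted p of at most 8.0e-04). The osteoclast marker sum was 441 to 511 CPM in the libraries with a peptide alone and 146 to 239 CPM in those with a peptide and IFN-γ, and its part in these results was not tested.

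**Figure D4:**
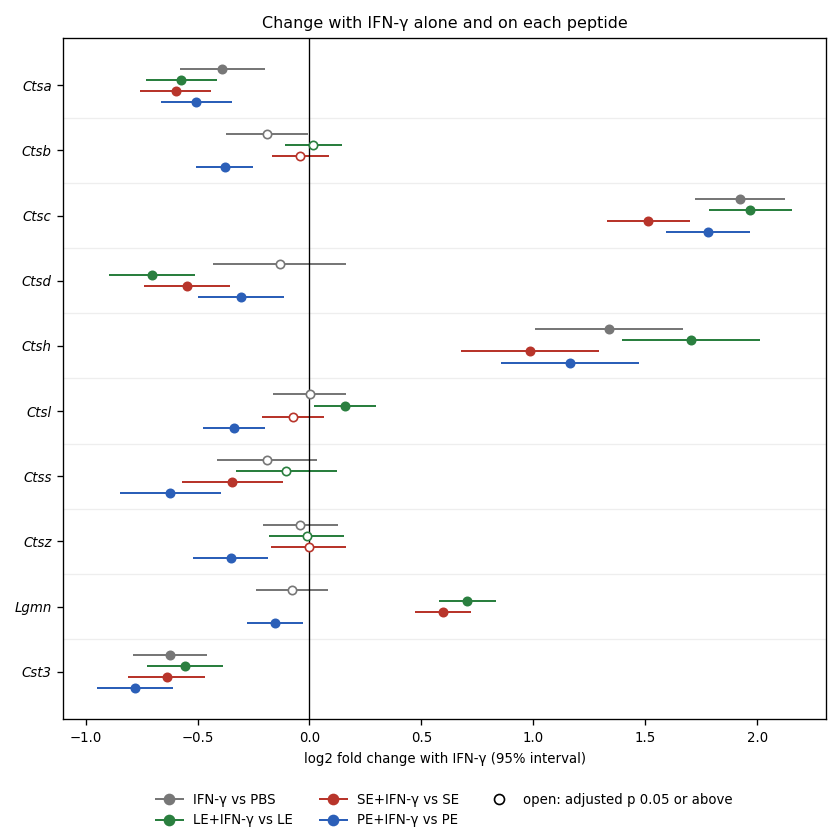
Log2 fold change of the 10 genes (rows) with IFN-γ on PBS and on each peptide, from edgeR, with 95% intervals. Filled points have an adjusted p under 0.05. The 4 points of Ctsc, at 1.51 to 1.97, and of Ctsh, at 0.98 to 1.70, lie to the right of 0, and those of Lgmn separate into LE and SE on the right and PBS and PE at or below 0.

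Whether the change with IFN-γ differed between a peptide and PBS was tested as an interaction in a fit of all 8 groups. With LE, Lgmn had an interaction of 0.78 (95% interval 0.61 to 0.96, adjusted p = 2.6e-07), that is, its change with IFN-γ was higher by this amount on the log2 scale than on PBS. Ctsd had -0.57 (-0.90 to -0.24, adjusted p = 0.0066). Ctsh, although higher with LE and IFN-γ than with IFN-γ alone, did not pass here (0.36, 95% interval -0.10 to 0.83, adjusted p = 0.21). The value for Ctsd was -0.46 (adjusted p = 0.035) without replicate 2, which leaves out its high library with IFN-γ alone, and did not pass under the length and GC offset (-0.32, adjusted p = 0.091). The background with LE was 18.8% higher and 19.6% lower, so 1 of 10 in each direction was below it. Ctsb just missed the threshold (0.21, adjusted p = 0.054). It passed with DESeq2 (adjusted p = 0.017), RLE factors (adjusted p = 0.048) and the replicate block (adjusted p = 0.045). Under the length and GC offset Cst3 (0.38, adjusted p = 0.0077), Ctsz (0.33, adjusted p = 0.019) and Ctsc (-0.26, adjusted p = 0.035) passed.

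With SE, Lgmn had 0.68 (95% interval 0.51 to 0.85, adjusted p = 5.8e-06) and Ctsc -0.40 (-0.67 to -0.14, adjusted p = 0.027), against 9.46% higher and 10.3% lower over all genes. Ctsc did not pass without replicate 1 (-0.33, adjusted p = 0.26) or without replicate 2 (-0.42, adjusted p = 0.065), and Lgmn passed with both peptides without any 1 of the replicates. With PE none of the 10 genes passed in edgeR, against 0% of all genes in either direction. At an unadjusted p under 0.05 there were 4 of the 10 (Ctsb, Ctsl, Ctss and Ctsz, all below 0) and 1073 of all genes, and DESeq2 called 1 (Ctsl, -0.35, adjusted p = 0.021).

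The genes around these 10 in the lysosome were described in lists, by counts and medians. For IFN-γ against PBS the counts stand beside the 20.2% of all genes that were higher and the 19.5% that were lower. Of 15 other cathepsin genes 4 had enough counts to be tested. With IFN-γ alone, Ctse (2.12), the gene of the aspartic protease cathepsin E, and Ctso (0.74) rose, and Ctsk (-2.79), the collagen-degrading cathepsin of osteoclasts, and Ctsf (-1.83) fell. Of 38 other lysosomal hydrolases 8 rose, led by Ppt1 (0.85), and 13 fell, led by Arsb (-2.33) and Acp5 (-2.27), with a median of -0.14 beside -0.0087 for all genes tested. Of 18 subunits of the v-ATPase, the proton pump that acidifies lysosomes, 3 rose and 11 fell, among them Atp6v0d2 (-1.51). Ctsk, Acp5 and Atp6v0d2 are also 3 of the osteoclast markers. Among 25 lysosomal membrane and sorting proteins 9 rose, led by the metal transporter Slc11a1 (1.48), and 9 fell, led by the receptor Lrp1 (-1.11). Of 3 other cathepsin inhibitors tested, Serpinb6a rose (0.45) and 2 fell, among them stefin B, Cstb (-0.28). Of 9 partners in class II processing 8 rose and none fell.

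With LE and IFN-γ against IFN-γ alone, the 4 other cathepsins tested had a median change of 0.0067. Over all genes 25.7% were higher and 24.8% lower. Of the 38 hydrolases 13 rose, led by Pla2g15 (0.92) and Gla (0.75), and 7 fell, led by Sgsh (-0.71), with a median of 0.01. The v-ATPase subunits divided evenly, with 6 higher, led by Atp6v0d2 (0.95), and 6 lower, led by Atp6v0a1 (-0.49). Of the membrane and sorting proteins 10 rose, led by the peptide transporter Slc15a3 (0.86), and 7 fell, led by Mcoln2 (-0.40). The class II partners fell in 6 of 9 and rose in none, with a median of -0.33 and with H2-Ab1 at -0.55 and the invariant chain Cd74 at -0.48. Of 12 regulators of lysosomal genes tested, 6 rose, led by the GTPase Rragd (1.88) and by Fnip1 (1.22), and 2 fell (Irf1 at -0.40 and Tfec at -0.38). With IFN-γ alone 3 of these 12 had fallen (Mitf, Tfec and Rragc).

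**Figure D5:**
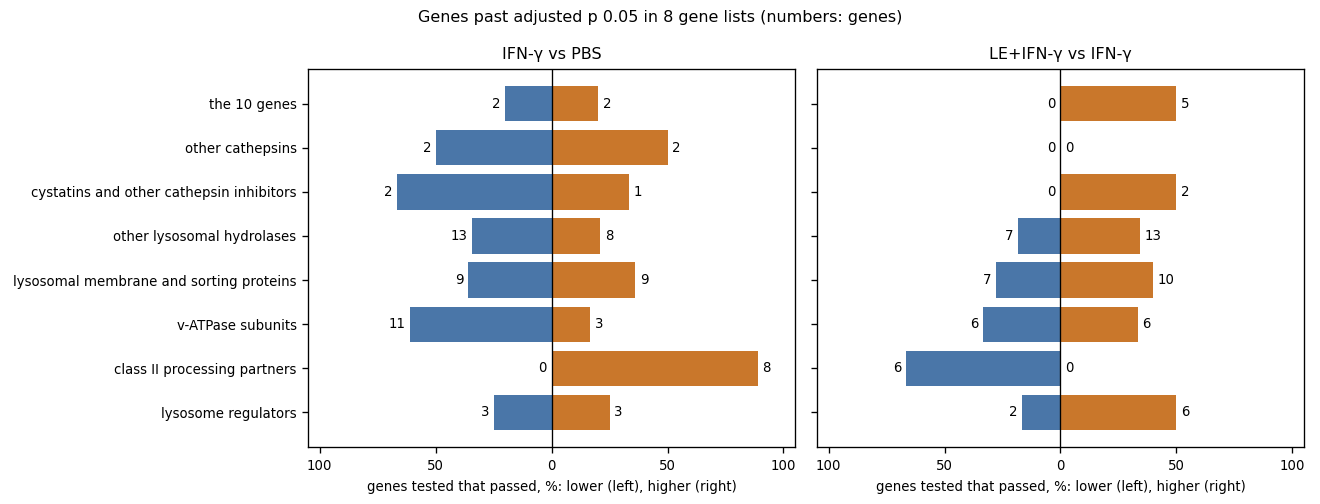
Share of the tested genes of 8 lists that passed (adjusted p under 0.05 in edgeR) as higher (right) or lower (left), in %, with the number of genes beside each bar, for IFN-γ against PBS and for LE plus IFN-γ against IFN-γ. The class II partners lie to the right in the first comparison, with 8 genes, and to the left in the second, with 6.

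For Ctsc and Ctsh, the 2 genes whose 8 group means spanned over 1 on the log2 scale, the genes of most like pattern were looked up among 13096 genes, by the root mean square difference of the 8 centred group means of log2(CPM + 0.5). For Ctsc these were the immunity-related GTPase Irgm1 (0.0836), the cathepsin gene Ctse (0.0916) and the class I transactivator Nlrc5 (0.119). For Ctsh they were BC022960 (0.0902), the class I gene H2-Q2 (0.147) and Tmco4 (0.151). H2-Q2 has near-identical relatives, and its count of uniquely mapped reads is uncertain.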

How the data were processed

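Counts of reads per gene were used as deposited. Per the labels and the study's methods, the authors sequenced poly(A) RNA in stranded, single-end libraries and counted uniquely mapped reads with featureCounts on GRCm38.p5; the submitters' processing notes also name DESeq2 1.16.1 and R 3.4.1. Uniquely mapped counts understate genes with near-identical copies.

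The letter-named libraries (8 groups of 3) were tested with edgeR 4.0.16 (quasi-likelihood, TMM, filterByExpr) in R 4.3.3, with Benjamini-Hochberg adjustment over 12242 to 13096 genes. All 10 genes passed the filter on low counts in every comparison. The fits held 2 groups for IFN-γ and PBS, 4 groups each for the peptides alone and for Model A, 6 for Model B and 8 for the interactions. Intervals are 95% intervals of the fitted log2 fold change. On simulated counts the IFN-γ fit recovered 85% of genes changed by 0.5 and 94% of those changed by 1 on the log2 scale. Exon lengths, GC content and gene positions came from GENCODE M21 (GRCm38), and promoters from RefSeq.

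The 10 genes and all lists were chosen with earlier results of these data known. From each list, the text names at most 3 higher and 3 lower genes, those that changed most among the passing genes with a mean of at least 10 CPM, for IFN-γ against PBS and for LE in Model A. Like genes were the 3 nearest for genes whose group means spanned over 1. The alternatives were RLE factors, DESeq2 1.42.0, no filter, all 8 groups in 1 fit, a replicate block, each replicate left out, the HLA-named libraries, and, chosen after seeing the data, a length and GC offset (spline of 4 degrees of freedom). The study gives the libraries as biological replicates from more than 1 experiment. Whether they came from separate cultures, or the letter-named ones from 1 experiment, was not given in the sources used here. The p-values measure the spread between these libraries. Chi-square tests of the 24 replicate pairs gave at least 3.89 per degree of freedom, more than 1 library sequenced again would give. This test cannot tell separate cultures from separate libraries of 1 culture. Each library was counted as 1 replicate.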

Additional observations from a re-analysis of the deposited data

Results flagged for a closer look

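In 4 cases the change of a gene with IFN-γ differed between a peptide and PBS by the interaction test in edgeR, with all 10 genes tested for 3 peptides. The interaction of Lgmn was 0.782 with LE and 0.681 with SE, as its level rose with IFN-γ on either peptide and not on PBS. That of Ctsd was -0.57 with LE, where its level fell from 5207 ± 214 to 3191 ± 94.4 CPM (SD, n = 3), beside 4087 ± 339 and 3720 ± 793 CPM on PBS. That of Ctsc was -0.405 with SE, where its level rose from 65.6 ± 2.46 to 188 ± 17.3 CPM, beside 69.7 ± 4.67 and 264 ± 28.2 CPM on PBS.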

How the results depend on the processing

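Among 71 calls of single genes and 635 recomputed values, 576 kept their direction and side of the threshold, 56 kept the direction only and 3 reversed, all under the length and GC offset: Cst3 with PE alone (-0.0015), Ctsl in LE against PE with IFN-γ (-0.0254) and Ctsl with LE and IFN-γ against LE (-0.24). None of these values comes from a fit with the HLA-named libraries, for which counts are given below. RLE factors and the replicate block ended no call.

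Counts of the 10 genes that passed are given next. With DESeq2 they were 1 for LE alone and 1 for the PE interaction (0 in edgeR), and without the filter 1 for LE alone, 5 for PE in Model A and 1 for the PE interaction. In a fit of all 8 groups they were 5 for SE alone, 1 for PE in Model A and 3 for LE against SE. Under the length and GC offset they were 7 for IFN-γ, 3 for PE alone and 4 for the LE interaction. With each replicate left out in turn they ranged from 0 to 3 for SE alone, 0 to 6 for PE alone, 0 to 3 for PE in Model A, 3 to 5 for LE against SE and 1 to 2 for the SE interaction.

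The HLA-named libraries, 12 of which went against their label, gave alone 0 for IFN-γ, 7 for LE alone, 0 for SE alone, 9 for PE alone, 0 for SE and 5 for PE in Model A, 0 for LE against PE, 7 for SE against PE, 0 for SE in Model B, and 8, 0 and 8 for the LE, SE and PE interactions. These libraries alone also gave 7 for LE against SE, and 5 for LE in Model A, as the letter-named libraries did. For LE in Model A the genes were mostly others. Ctsc passed as higher and Cst3, Ctsa and Ctss as lower, and none of them had passed in the letter-named libraries. With both series together the count was 0 in every comparison but PE in Model B (1). With the series as a term it was 1 for IFN-γ, 5 for LE alone, 0 for SE alone, 2, 0 and 0 for LE, SE and PE in Model A, 2 for LE against SE and for LE against PE, 0 for SE and 5 for PE in Model B, and 0 for the LE and SE interactions. In the order of the deposited columns, the HLA-named libraries stand beside letter-named libraries of other groups than their labels give. The groups were kept as labelled, and the cause of these differences was not tested.

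Replicate numbers were checked as pairs by the correlation of deviations from the group means. Of 84 same-numbered pairs 25 exceeded 0.1. Their median was 0.0490, beside -0.0230 for the 168 pairs with different numbers. A weak pairing is not excluded by these values, and the main tests did not pair libraries by number. With the replicate block, 5 of the 10 genes passed for IFN-γ, 4 for SE alone and 6 for PE alone, 6 for LE and 3 for PE in Model A, and 3 for the LE interaction.

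There were 3 libraries per group of 1 line at 1 dose and time, the calls with SE alone, with PE alone and with PE in Model A were lost without replicate 1 or without replicate 3, transcripts and not protein or protease activity were measured, and depth was not limiting, since the lowest count was 185.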
